A study of Mus musculus with 7 samples.

Results

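Osmolyte transporters and the genes of the response to raised tonicity were examined in the brown fat of mice that lacked glycerol kinase. Of 8 genes listed for this purpose, 7 had probe sets on the array: the transporter genes Slc5a3, Slc6a6 and Slc38a2, the transcription factor gene Nfat5, the kinase gene Sgk1, the sodium pump regulator gene Fxyd2 and the chaperone gene Hspa4l. The remaining gene, Akr1b3 (aldose reductase), was paired with 0 probe sets in the probe table used here and was not analysed here. The 7 genes had 26 of the 45037 probe sets in the table, counting only probe sets paired with 1 gene symbol. A filter on low mean signal over all arrays, blind to genotype, kept 21 of the 26. The genes were grouped because glycerol may build up without glycerol kinase, and they were chosen by their role with the log2 difference between knockout (KO) and wild-type arrays on all 7 arrays already known. Their own differences are therefore a description and no test of the group.

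The study measured total RNA from brown fat of male C57BL/6J mice aged 3 days, 1 sample per array. The control group was 3 wild-type samples (replicates 1, 3 and 4) and the experimental group 4 samples with a KO of Gyk (replicates 1 to 4). The labels do not say how the KO allele was made, nor whether each sample was 1 animal. The p-values therefore measure the spread between these samples, which may be technical.

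Cells in a hypertonic medium lose water, and over hours they replace inorganic ions with small organic osmolytes that do not disturb proteins. The transcription factor NFAT5, also called TonEBP, drives this response through tonicity elements in the genes of osmolyte transporters, of aldose reductase and of some chaperones. SLC5A3 takes up myo-inositol, SLC6A6 takes up taurine and SLC38A2 takes up small neutral amino acids such as glutamine and proline by system A. These carriers also have other inputs: Slc38a2 is a known target of the response to amino acid shortage, and Sgk1 a known target of glucocorticoids.

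The region just upstream of the transcription start is shown for 3 of the genes, because it allows the sequences of the transporter genes to be set beside that of a tonicity and glucocorticoid responsive kinase gene. The sequences are from RefSeq (build GRCm38.p6), 250 bases each, on the strand of the gene. Capitals mark the tonicity element core TGGAAA, the glucocorticoid receptor hexamer AGAACA and the GC box GGGCGG on either strand. The Slc5a3 window is chr16:92058072-92058321 on the plus strand, the Slc38a2 window chr15:96699729-96699978 on the minus strand, and the Sgk1 window chr10:21993640-21993889 on the plus strand, before 1 of the 6 start sites listed for that gene.
Slc5a3: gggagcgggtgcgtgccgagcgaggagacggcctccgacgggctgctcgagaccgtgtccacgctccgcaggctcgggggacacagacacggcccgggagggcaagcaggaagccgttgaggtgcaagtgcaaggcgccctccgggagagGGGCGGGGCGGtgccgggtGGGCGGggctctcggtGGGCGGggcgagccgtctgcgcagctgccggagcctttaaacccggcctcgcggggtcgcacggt
Slc38a2: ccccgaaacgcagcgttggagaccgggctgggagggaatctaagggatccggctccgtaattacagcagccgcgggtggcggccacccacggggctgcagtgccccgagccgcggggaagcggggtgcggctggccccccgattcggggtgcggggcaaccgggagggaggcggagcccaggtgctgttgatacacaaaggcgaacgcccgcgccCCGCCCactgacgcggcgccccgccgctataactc
Sgk1: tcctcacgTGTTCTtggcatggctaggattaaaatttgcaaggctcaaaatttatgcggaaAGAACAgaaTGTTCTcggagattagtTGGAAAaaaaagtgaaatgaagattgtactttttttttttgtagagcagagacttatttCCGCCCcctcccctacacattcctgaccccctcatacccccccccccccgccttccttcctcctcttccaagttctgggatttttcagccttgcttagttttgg

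The Slc5a3 window held 4 GC boxes, the first 2 of which overlapped by 1 base, and the Slc38a2 window 1. Neither held the tonicity core, the glucocorticoid receptor hexamer or the C/EBP-ATF composite element TGATGNAA of the amino acid response. The Sgk1 window shown was chosen because it alone of the 6 held a palindrome of hexamers. Over the 6 windows, 2 held the tonicity core and 3 the glucocorticoid receptor hexamer, against a single window for each other gene. The one shown held 1 tonicity core, 3 glucocorticoid receptor hexamers and 1 GC box. A pair of its hexamers faced each other across 3 bases, the palindrome bound by the receptor pair, which was looked for after the hexamers were seen and which 3 of 32851 promoter windows of the same length held (0.00913%). Over all windows 18.6% held the tonicity core, 16.1% the glucocorticoid receptor hexamer, 3.45% the composite element and 32.7% the GC box. Windows were also listed for Nfat5 and Hspa4l, which held GC boxes (2 and 4) and none of the other motifs. A match is a description of letters and not a bound site, and no match concerns these windows alone, since enhancers lie elsewhere.

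The level of the targeted gene was not analysed here, because 0 probe sets were paired with Gyk (symbol Gk), so genotypes rest on the labels. The array labelled KO replicate 2 stood apart. On the first principal component (35.3% of the variance) it scored -13.8, between the wild-type arrays (-33.3 to -23.0) and the other KO arrays (33.4 to 35.7), and its highest correlation with another array, 0.975, was with wild-type replicate 1. Its Xist signal was 893 on 1 probe set against at most 13.1 on the others, although all samples were labelled male. It also gave a signal of 1252 for Eif2s3y, a gene of the Y chromosome, which lay within the 1210 to 1566 of the remaining arrays, so both signals were present. Whether its RNA came from more than 1 animal was not tested. Results are therefore given with and without it. Among all probe sets tested by limma, 431 of 27022 (1.59%) passed with all arrays, 257 of them higher (0.951%) and 174 lower (0.644%) in KO. Without that array 1986 (7.35%) passed, with 3.14% of all tested being higher. The median signal of an array was 131.2 to 153.7, and precision is limited by how few arrays there are.

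Of the 21 tested probe sets of the 7 genes, 7 were among those that passed, all higher in KO, beside 1.59% of all tested probe sets. They belonged to Slc5a3, Slc6a6, Slc38a2 and Fxyd2. In 9 of the 21 the groups were fully separated, all with KO higher, beside 14.7% of all tested probe sets (7.48% with KO higher). Since the genes were chosen with this contrast known, nothing is read from these counts. Without KO replicate 2, 9 of the 21 passed and included all 7, beside 7.35% of all tested probe sets. The count was 3 without KO replicate 1, 0 without KO replicate 3, 2 without KO replicate 4, 3 without wild-type replicate 1, and 0 without wild-type replicate 3 or 4. Over all 27022 tested probe sets the counts of these fits fell as well. In the same order they were 40, 9, 15, 25, 8 and 7. In the 3 fits where 0 of the 21 passed, between 9 and 11 of the 21 had an unadjusted p under 0.05. This stands beside 16.5% of all tested probe sets in the fit with all arrays.

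Slc5a3, the carrier of myo-inositol, was 2.01-fold higher in KO on its brightest probe set, 1435484_at. The wild-type arrays read 1741 (replicate 1), 1709.8 (replicate 3) and 1897 (replicate 4). The KO arrays read 3810, 3912, 3706 and 3046 (replicates 1 to 4). Every KO array was thus far above every wild-type array, and the array labelled KO replicate 2, which stood near wild type for much of the transcriptome, was the highest of all. The mean was 1783 ± 101 (SD, n = 3) in wild type and 3618 ± 391 (n = 4) in KO, a log2 difference of 1.004 ± 0.115 (SE). The log2 difference was 0.96 without KO replicate 2.

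A second Slc5a3 probe set, 1440227_at, read 203, 403 and 395 in wild type and 609, 469, 644 and 569.9 in KO. The groups did not overlap here either, with wild-type replicate 1 lowest of all. The log2 difference was 0.77 ± 0.22 and did not pass with all arrays, but did without KO replicate 2 (0.86). The third probe set, 1422170_at, was under the filter and read 56.6 to 118 in wild type and 69.1 to 113 in KO. In the RefSeq annotation the span of Slc5a3 overlaps that of Mrps6, a gene of the mitochondrial ribosome. The Mrps6 probe sets had log2 differences of 0.17 and 0.18 and did not pass (adjusted p = 0.544 and 0.479).

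Slc6a6, the taurine transporter, was higher in 3 KO arrays, while the array labelled KO replicate 2 lay near wild type. Probe set 1421346_a_at read 769.6, 660.1 and 668 in wild type. In KO it read 2011, 972, 2258 and 2101. The groups did not overlap, but KO replicate 2 was far below the other KO arrays. The mean was 699 ± 61.1 in wild type and 1835 ± 585 in KO, a log2 difference of 1.29 ± 0.25 and a fold of 2.44. The fold was 2.95 without KO replicate 2.

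On the brightest Slc6a6 probe set, 1437149_at, wild type read 982, 1456 and 1171 and KO read 3061, 1259, 3801 and 3778. KO replicate 2 fell inside the wild-type range here, and the log2 difference of 1.18 ± 0.33 did not pass with all arrays. It passed without KO replicate 2, at 1.55. The dim probe set 1420148_at, under the filter, read 11.8, 23.7 and 20.6 in wild type and 24.6 in KO replicate 2, against 246, 137 and 201 in KO replicates 1, 3 and 4. Here too KO replicate 2 lay near wild type and the other KO arrays were far above. The fourth probe set, 1449751_at, ranged from 40.6 to 111 in wild type and from 58.5 to 258 in KO, with overlap, and its log2 difference was 0.60 ± 0.38.

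Slc38a2, the system A carrier of neutral amino acids, had the largest difference of the 3 transporters by its brightest probe set. Probe set 1426722_at read 1456, 1670.2 and 1524 in wild type and 5554, 2754, 4149.9 and 4756 in KO. All KO arrays were above all wild-type arrays, with KO replicate 2 lowest among them. The means were 1550.2 ± 109 (n = 3) and 4303 ± 1182 (n = 4), a log2 difference of 1.41 ± 0.20 and a fold of 2.66 (3.05 without KO replicate 2). Probe set 1429593_at gave the same picture, with 293, 311 and 339 in wild type and 1309, 470.4, 929.6 and 1123 in KO, a log2 difference of 1.43 ± 0.28. The dimmest, 1429594_at, was at 91.1 ± 18.6 in wild type and 138 ± 30.8 in KO, did not overlap between groups and did not pass (0.46 ± 0.23).

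Fxyd2, the gamma subunit that tunes the affinity of the sodium pump for its ions and is best known from the kidney tubule, had the largest log2 difference among the 21 tested probe sets. Probe set 1419378_a_at read 81.2, 81.1 and 41.8 in wild type and 595, 285, 369 and 432 in KO. The lowest KO array was over 3 times the highest wild-type array. The log2 difference was 2.18 ± 0.26, a fold of 4.52 on the scale with an offset of 30.6 signal units, which understates the change of such dim probe sets. The other probe sets above the filter also passed: 1419379_x_at at 1.52 ± 0.24 and 1456601_x_at at 1.84 ± 0.28. Both carry the suffix for probes that can match other transcripts. The wild-type means of the 3 probe sets were 68.0, 93.5 and 36.4. In 1419378_a_at and 1456601_x_at the wild-type arrays alone were under the level of the filter, so these were kept through the KO arrays, where they were high. The fourth, 1449883_at, read 5.2 to 10.8 on all 7 arrays, near the bottom of the signal range, and was under the filter.

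**Figure D1:**
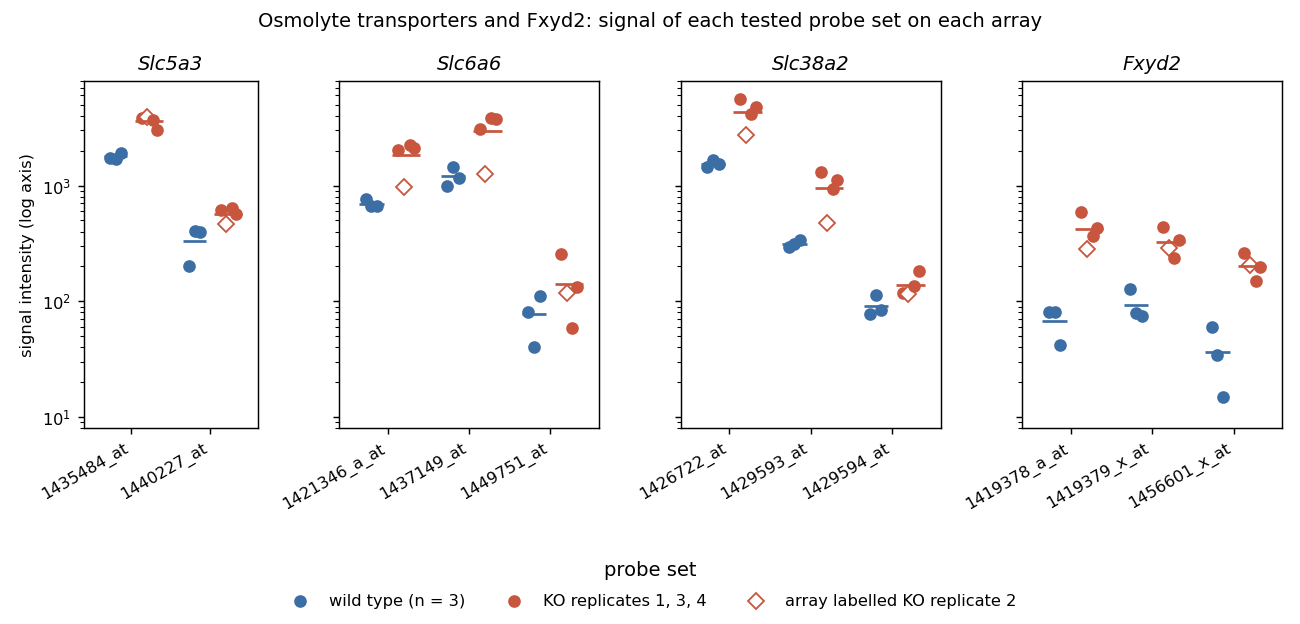
Signal intensity (log axis) of each tested probe set of Slc5a3, Slc6a6, Slc38a2 and Fxyd2, 1 point per array, with blue for wild type (n = 3), red for KO replicates 1, 3 and 4, an open diamond for the array labelled KO replicate 2 and lines for group means. On 1435484_at of Slc5a3 the diamond is at 3912, level with the other KO arrays, while on 1437149_at of Slc6a6 it is at 1259, within the wild-type points.

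The regulators of the response did not show such a separation. Nfat5 had 4 tested probe sets, and the groups overlapped in each. Its brightest, 1438999_a_at, read 491, 549 and 572 in wild type and 673, 505, 651 and 795 in KO, so that 3 KO arrays were above all wild-type arrays and KO replicate 2 was not. The log2 difference was 0.26 ± 0.16. The other differences were 0.33 ± 0.21 on 1439328_at, 0.04 ± 0.29 on 1448966_a_at and -0.22 ± 0.28 on 1439805_at, so the probe sets of Nfat5 disagreed in sign. A further 2 probe sets read at most 45.9 and were under the filter. NFAT5 is also controlled through its entry into the nucleus, which RNA levels do not show.

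Sgk1, the serum and glucocorticoid regulated kinase that also responds to cell volume, had 1 probe set, 1416041_at. It read 2911, 3737 and 2030.3 in wild type and 5729, 2665, 2920.4 and 4604 in KO. Replicates 1 and 4 of KO were above all wild-type arrays, while KO replicates 2 and 3 were within the wild-type range. The log2 difference was 0.43 ± 0.27, and 0.60 without KO replicate 2, and it passed in neither case. Hspa4l, a chaperone of the Hsp110 family first described as a protein induced by osmotic stress, showed no separation of the groups. Its brightest probe set, 1418253_a_at, read 463, 530.4 and 714 in wild type and 501.5, 425, 721 and 537.5 in KO. All 5 of its probe sets had a difference below 0, from -0.43 ± 0.22 on 1429106_at to -0.06 ± 0.20 on 1418253_a_at, the groups overlapped in each, and none passed. A difference that did not pass does not show that these 3 genes were at equal levels.

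**Figure D2:**
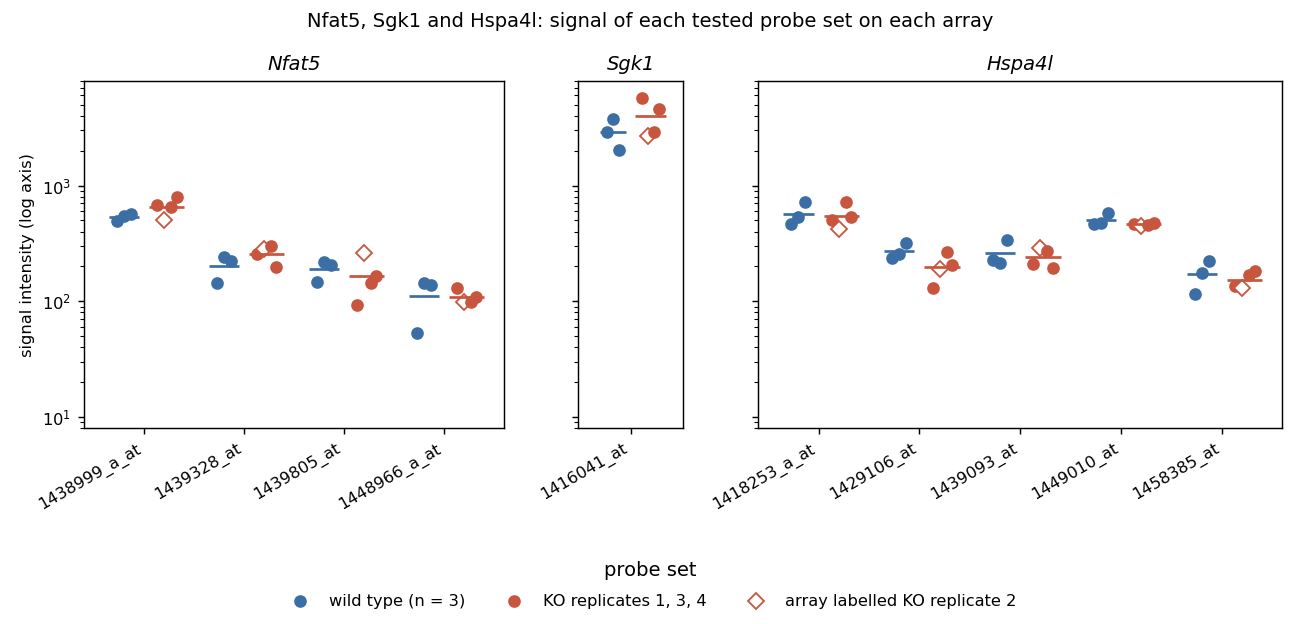
Signal intensity (log axis) of each tested probe set of Nfat5, Sgk1 and Hspa4l, 1 point per array, with colours, diamond and lines as for the transporters. KO and wild-type points overlap in every probe set drawn, and the Sgk1 points run from 2030.3 to 3737 in wild type and from 2665 to 5729 in KO.

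**Figure D3:**
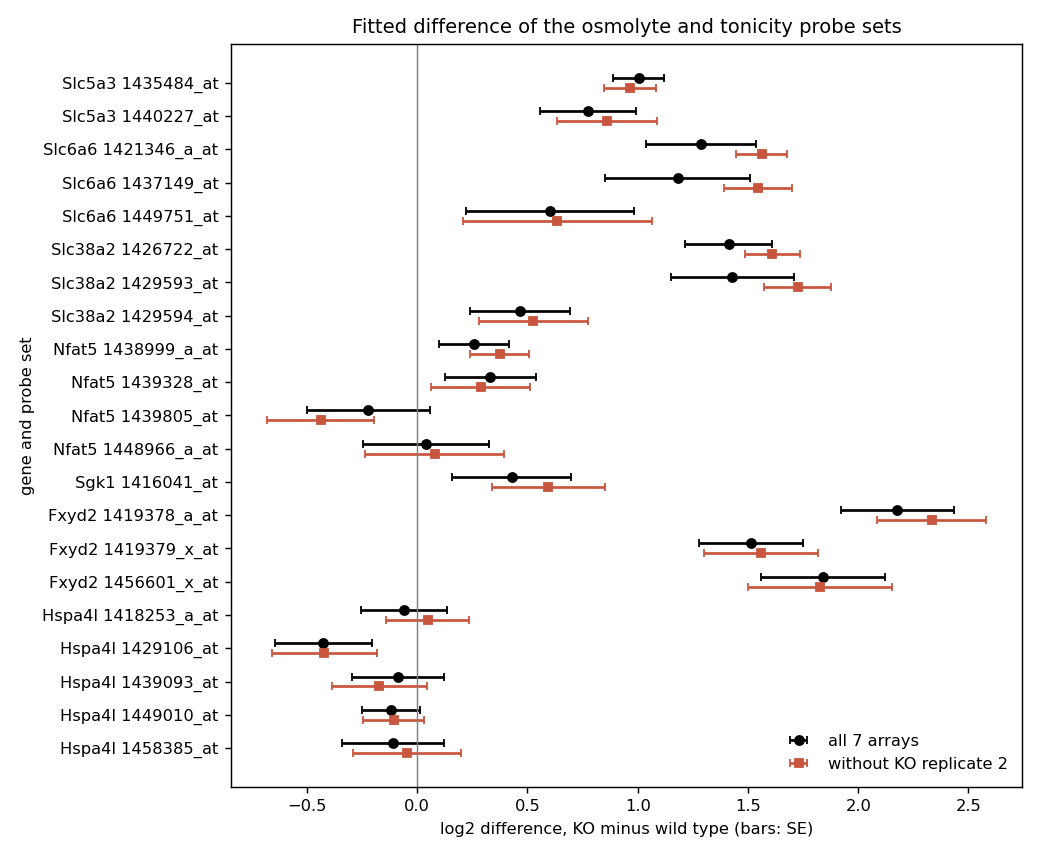
Log2 difference, KO minus wild type, with its SE, for the 21 tested probe sets, with all 7 arrays (black circles) and without KO replicate 2 (red squares). The Fxyd2 probe sets lie between 1.52 and 2.18 with all arrays, and the 5 Hspa4l probe sets between -0.43 and -0.06.

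The 4 genes that were higher in KO differed in how the array labelled KO replicate 2 behaved. Its position was measured on the log2 scale, from 0% at the wild-type mean to 100% at the mean of the other KO arrays. It was 116% for Slc5a3 (1435484_at), 73.2%, 88.5% and 103% for the Fxyd2 probe sets, 50.9% and 31.3% for the Slc38a2 probe sets 1426722_at and 1429593_at, and 29.5% for Slc6a6 (1421346_a_at). Over all 431 probe sets that passed, the median position was 59.998% and the quartiles were 50.2% and 77.0%, and 35 of them (8.12%) were beyond 100%. The 431 were picked by a fit that held this array, so probe sets where it lay near wild type were less likely to be among them. Of probe sets that did not pass, the second of Slc5a3, 1440227_at, was at 59.4% and the brightest of Slc6a6, 1437149_at, at 5.31%. The brightest Slc5a3 probe set and those of Fxyd2 thus kept most or all of their difference on this array, while Slc6a6 and 1 Slc38a2 probe set kept less than the lower quartile. These positions are single values of 1 array and carry no test.

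**Figure D4:**
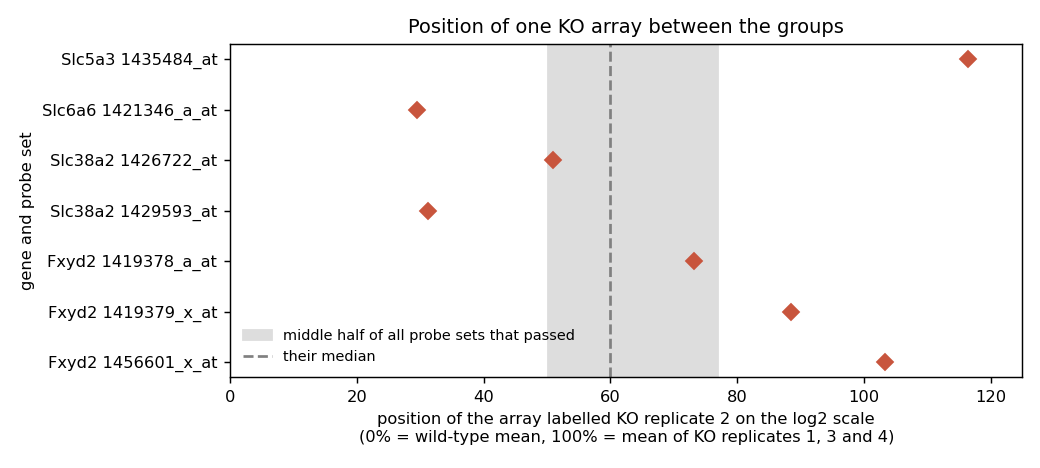
Position of the array labelled KO replicate 2 between the wild-type mean (0%) and the mean of KO replicates 1, 3 and 4 (100%) on the log2 scale, for the 7 probe sets that passed, with the range between the quartiles of all 431 passing probe sets in grey and their median of 59.998% as a dashed line. Slc5a3 is at 116% and Slc6a6 at 29.5%.

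The arrays fall into 2 separate runs of deposit numbers, with KO replicates 1 and 2 and wild-type replicate 1 in the first and the other 4 in the second. Within the second run alone (2 KO and 2 wild-type arrays) the log2 differences of the 4 genes on the probe sets named first above were 0.89 for Slc5a3, 1.67 for Slc6a6, 1.46 for Slc38a2 and 2.26 for Fxyd2, and 7 of the 21 probe sets passed, beside 2.69% of all. With the run as a covariate the 4 differences were 0.99, 1.34, 1.44 and 2.15, and 9 of the 21 probe sets passed, beside 2.34% of all.

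The named genes with the most similar profile over the 7 arrays were found by Pearson's r of log2 values, as a description in which the 2 genotypes set much of the likeness. For Slc38a2 the nearest was Prodh, proline dehydrogenase (r = 0.999), followed by D230025D16Rik (0.996) and Fmo2 (0.995). For Fxyd2 they were Fam102b (0.997), Wac (0.993) and the glutamate transporter gene Slc1a3 (0.992). For Slc5a3 they were the transcription factor gene Foxo4 (0.993), Fam8a1 (0.980) and Unc119b (0.979), and for Slc6a6 Shroom2 (0.995), Yy1 (0.992) and Fbxo27 (0.992). Sgk1 was nearest to Rab27a (0.982), to Atf4, the transcription factor gene of the amino acid response (0.977), and to Slc3a2, the heavy chain of amino acid exchangers (0.973). Nfat5 was nearest to Camk2d (0.994), Peg3 (0.993) and Lrfn1 (0.990), and Hspa4l to Efcab14 (0.993), Mphosph9 (0.971) and Cbx1 (0.966). Among the 7 genes themselves r ranged from 0.971 between Slc38a2 and Fxyd2 to -0.34 between Sgk1 and Hspa4l.

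Related genes were taken from 10 further lists of osmolyte supply, water and ion transport, SGK signalling, chaperones, other tonicity responders, the NFAT family, amino acid transport and the amino acid response, each gene counted by its brightest probe set. The lists were chosen with earlier results of these data known, so their counts are a description. Of 163 genes listed, 130 were tested. By limma's adjusted p, 5 passed, of which 4 had risen and 1 had fallen in KO, beside 1.83% of all genes counted in this way. An unadjusted p under 0.05 was reached by 30 of the 130, and by 16.5% of all tested probe sets. That share counts every tested probe set, dim ones included, and was not computed for the brightest of each gene. It is therefore only a rough guide to the unadjusted counts of the lists. The median log2 difference of the 130 was 0.06, against -0.01 over all genes. Without KO replicate 2, 21 of the 130 passed, 13 higher and 8 lower, beside 8.38% of all genes.

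In the supply of organic osmolytes, 17 of 23 genes were tested, 1 rose and 1 fell (median -0.08). By an unadjusted p under 0.05, 4 were higher and 3 lower. Chdh, the choline dehydrogenase that starts betaine synthesis, rose from 1473 ± 170.2 to 2550.3 ± 408 (log2 difference 0.77 ± 0.14, adjusted p = 0.033). Gpcpd1, which splits the osmolyte glycerophosphocholine into choline and glycerol 3-phosphate, fell from 2015 ± 254 to 1249 ± 122 (-0.67 ± 0.13, adjusted p = 0.0342). In both genes the groups were fully separated. Without KO replicate 2, 2 genes of the list passed as higher and 3 as lower, beside 8.38% of all genes. Besides Chdh, the higher one was Cdo1 (0.59, limma adjusted p = 0.00883). Besides Gpcpd1, the lower ones were Akr1b10 (-0.62, adjusted p = 0.0151) and Aldh7a1 (-0.55, adjusted p = 0.0162). Another Akr1b10 probe set differed by 0.36 without that array and did not pass. The betaine transporter gene Slc6a12, a classical NFAT5 target, read 8.3 to 29 on all arrays and was under the filter.

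Water and ion transport genes showed no call with all arrays. Of 10 tested aquaporins 0 passed and 1 had an unadjusted p under 0.05 (median 0.10). The smallest p was that of Aqp6 (1.05 ± 0.29, adjusted p = 0.0978), followed by the water channel Aqp1 (0.18 ± 0.15, adjusted p = 0.621). Aqp7, the channel through which fat cells release glycerol, is outside the naming rule and was picked once its values had been seen. On 1418848_at it read 1794 to 2029.5 in wild type and 1286 to 1513 in KO (-0.45 ± 0.11, adjusted p = 0.0745, 0.0294 without KO replicate 2), while the x_at probe set of Aqp7 differed by 0.09 and did not pass. Of 15 tested volume channels and cotransporters 0 passed, while 2 were higher and 2 lower by an unadjusted p under 0.05 (median -0.01). Slc12a2, the sodium, potassium and chloride cotransporter of volume regulation, read 2432 ± 445 in wild type and 4067 ± 746 in KO (0.73 ± 0.17, adjusted p = 0.0604), and passed without KO replicate 2 (adjusted p = 0.00874). Oxsr1, a kinase that activates it, read 1009.9 ± 82 and 711 ± 53.6 (-0.49 ± 0.12, adjusted p = 0.0746), and passed without that array (adjusted p = 0.034).

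Fxyd2 passed and the other tested FXYD genes did not. The sodium pump and FXYD list had 6 tested genes of 13, of which 0 passed and 0 had an unadjusted p under 0.05 (median -0.10). Atp1b3 and Atp1b1, beta subunits of the pump, differed by -0.17 ± 0.10 (adjusted p = 0.445) and -0.20 ± 0.16 (adjusted p = 0.586). Fxyd1 (-0.09), Fxyd4 (-0.10) and Fxyd5 (-0.02) did not pass, and Fxyd3, Fxyd6 and Fxyd7 were under the filter and not tested. Fxyd7 read 122, 126 and 207 in wild type and 51, 132.5, 29.2 and 44.4 in KO (replicates 1 to 4). Fxyd3 read 31.3 to 153 in wild type and 14.2 to 139 in KO, and Fxyd6 17.3 to 44.2 and 13 to 91.9.

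In the family of Slc38a2, Slc38a1 differed by 0.03 and Slc38a4 by 0.09 on its first probe set and 0.11 on the second, and none passed. Among 19 tested amino acid transporters of 21, 1 rose (median 0.08): Slc1a3, from 642 ± 39.3 to 1225 ± 147 (0.90 ± 0.13, adjusted p = 0.0199), with a second of its probe sets also past the threshold. Of 14 amino acid response genes 0 passed and 4 were higher at an unadjusted p under 0.05 (median 0.25). Eif4ebp1, a repressor of translation, had the smallest p (0.52 ± 0.11, adjusted p = 0.0521) and passed without KO replicate 2 (adjusted p = 0.0147), and Sesn2 followed (0.65 ± 0.19, adjusted p = 0.1155). Without that array 2 genes of this list passed, both higher, beside 8.38% of all genes. The second was Trib3 (1.13, limma adjusted p = 0.0109), which with all arrays differed by 0.88 ± 0.28 (adjusted p = 0.141).

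The chaperones gave no common direction. Of 15 tested genes of the Hsp110 and Hsp70 families 0 passed, while 1 was higher and 3 were lower by an unadjusted p under 0.05 (median 0.04). Hspa14 (-0.48 ± 0.15, adjusted p = 0.137) and Hspa12a (-1.15 ± 0.37, adjusted p = 0.151) had the smallest p and passed without KO replicate 2 (adjusted p = 0.034 and 0.0282). These were the 2 lower genes of the list that passed without that array, and 3 passed as higher. To complete the count, the higher ones were Hspa1a (1.18, adjusted p = 0.0349), and Hspb1 (0.61, adjusted p = 0.0107) and Dnajb1 (0.59, adjusted p = 0.0121), which the list also held. Hspa4, the nearest relative of Hspa4l, differed by 0.05 on its brightest probe set and by -0.61 and -0.66 on the others. With all arrays none of these passed, and the last did without KO replicate 2 (adjusted p = 0.042). Hspa1b, an inducible Hsp70 gene that tonicity can raise, differed by 0.49 ± 0.31 on its brightest probe set (adjusted p = 0.474, 0.101 without KO replicate 2). Its other probe sets differed by 0.82 ± 0.33 and 1.03 ± 0.35 (adjusted p = 0.243 and 0.172) and passed without that array (adjusted p = 0.0236 and 0.00834).

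In the SGK list 1 of 12 tested genes rose (median 0.15), Tsc22d3, which encodes a glucocorticoid-induced leucine zipper protein: 2172 ± 343 to 5460.4 ± 2167 (1.24 ± 0.26, adjusted p = 0.0451). Sgk2 (-0.35) and Sgk3 (-0.52, -0.13 and -0.23) did not pass. Among 18 tested transcripts known to respond to NFAT5 or tonicity, 1 rose (median 0.04), the cell cycle inhibitor gene Cdkn1a: 2749 ± 429 to 5802 ± 1399 (1.05 ± 0.18, adjusted p = 0.0277). By an unadjusted p under 0.05, 3 of this list were higher and 2 lower. Without KO replicate 2, 1 passed as higher, Cdkn1a, and 1 as lower, Map2k6 (-1.59, limma adjusted p = 0.0109). With all arrays Map2k6 differed by -1.30 ± 0.35 (adjusted p = 0.0911). Of the 4 other NFAT genes 0 passed and 0 had an unadjusted p under 0.05, with the smallest p for Nfatc3 (0.09 ± 0.13, adjusted p = 0.797) and Nfatc1 (0.07 ± 0.12, adjusted p = 0.828).

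Glucocorticoid target genes differed on the same arrays, and Tsc22d3 and Cdkn1a are also on that list. This list too was chosen with earlier results of these data known, so its counts are a description and no test of the list. Of 16 tested, 8 rose and 0 fell (median 0.85), beside 1.83% of all genes that passed in either direction. Without KO replicate 2, 12 rose, beside 8.38% of all genes. The largest log2 differences of the list were those of Klf15, Fkbp5 and Zbtb16. In wild type and KO, Klf15 read 209 ± 62.4 and 1324 ± 593, Fkbp5 575 ± 11.8 and 2248 ± 986, and Zbtb16 963 ± 219 and 3560.3 ± 1370. All 16 had a positive difference, whether or not they passed. Sgk1, a target of the same hormones, also had a positive difference (0.43 ± 0.27) and did not pass. The part of this pattern in the differences of the transporters and of Sgk1 was not tested.

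**Figure D5:**
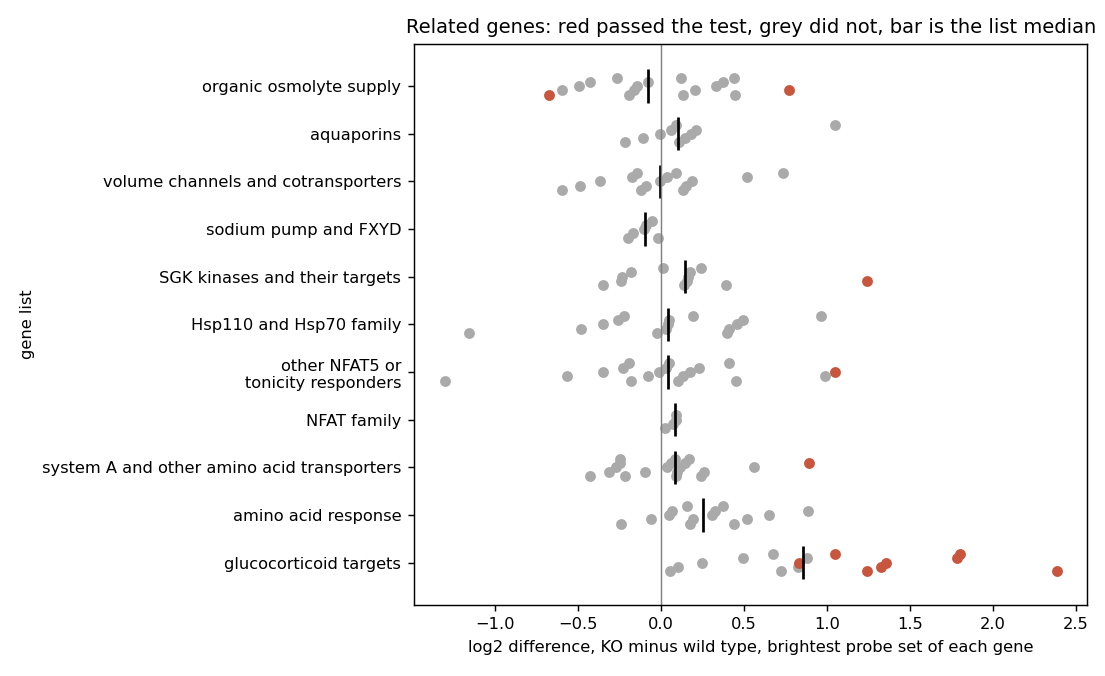
Log2 difference, KO minus wild type, of the brightest probe set of each tested gene in 10 lists related to osmolytes and tonicity and in a list of glucocorticoid targets, with red for genes that passed, grey for those that did not and a bar at the list median. The medians lie between -0.10 and 0.25 in the first 10 lists and at 0.85 for the glucocorticoid targets.

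The tissue label was checked against markers. All 10 tested brown adipocyte markers of 12 were read at a summed signal of 144107 to 162762 in wild type and 136588 to 180952 in KO, and 0 passed by the brightest probe set (median 0.02). On other probe sets of these genes there was 1 call, for Fabp4. In bulk samples fewer cells of a type and less RNA per cell cannot be told apart. Of 10 kidney tubule markers, relevant to Fxyd2, 7 were under the filter, and the other 3 summed to 878 to 1004 in wild type and 909.8 to 1147 in KO with 0 calls and 0 at an unadjusted p under 0.05. Neutrophil granule markers (9 of 10 tested, 1 called, Chil3, 5 higher at an unadjusted p under 0.05, all 9 with a positive difference, median 0.56) summed to 4765 to 7145 in wild type and 6831 to 11832 in KO. Fibroblast markers (9 of 10 tested, 0 called, 4 lower at an unadjusted p under 0.05) had 0 positive differences and a median of -0.33. Their sum was 64295 to 74328 in wild type and 41262 to 67368 in KO. Without KO replicate 2, 4 fibroblast markers passed as lower and 3 neutrophil granule markers as higher, beside 8.38% of all genes. Skeletal muscle markers, 10 of 10 tested with 0 called and 1 at an unadjusted p under 0.05, ranged from 36736 to 60668 in wild type and from 29390 to 55830 in KO. Their sum differed by deposit run: 60668 (wild-type replicate 1), 55830 and 52446 (KO replicates 1 and 2) in the first, and 29390 to 38481 in the second. Macrophage and leukocyte markers (10 of 10, 0 called, 1 unadjusted) ranged from 10470 to 10898 in wild type and from 9000 to 13921 in KO. Endothelial markers (10 of 10, 0 called, 3 unadjusted) ranged from 17554 to 21264 and from 17689 to 21102. Among 4 tested neuron and Schwann cell markers and 4 tested erythroid markers 0 passed, and 0 had an unadjusted p under 0.05. The part of neutrophils and fibroblasts in the differences of the transporters was not tested.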

How the data were processed

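The deposited values are signal intensities on a linear scale, 1 per probe set and array, and the submitters' processing notes name GCOS 1.2. How the authors scaled them is not given here. The mean signal after trimming 2% at each end was 500.003 on all 7 arrays, so the authors' scaling was kept. Control probe sets (64 of 45101) were left out. Symbols came from a probe table (34945 probe sets with 1 symbol, 932 with several and 9160 with none), updated through RefSeq gene identifiers (34741 matched).

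An offset of 30.6, the 20th percentile of the signals, was added before taking log2. Probe sets with a mean log2 value under the 40th percentile were left out, which kept 27022. KO was compared with wild type by a two-sided limma fit (limma 3.58.1, R 4.3.3) whose variance prior followed the mean, and p-values were adjusted by Benjamini-Hochberg over all tested probe sets and a threshold of 0.05. A fold is 2 to the power of the log2 difference. The fit was tested on simulated data.

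The genes and lists were chosen with earlier results of these data known. Named were all 8 genes with every probe set, the genes of each related list that passed by the brightest probe set (up to 6) or else the 2 with the smallest p, relatives of the 7 measured genes, and the 3 nearest profiles of each. Motifs were searched on both strands. Of the glucocorticoid targets 3 of those named by this rule are given. Alternatives were other normalizations, offsets, filters, variance models and array weights, a replicate or deposit-run block, and fits that each lacked 1 array.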

Additional observations from a re-analysis of the deposited data

How the results depend on the processing

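The 7 probe sets of Slc5a3, Slc6a6, Slc38a2 and Fxyd2 that passed kept their positive difference under each alternative that tested them. The count of passing probe sets of the 7 genes was 4 with the filter at the 60th percentile, where the 3 Fxyd2 probe sets are no longer tested, 4 with no filter, and 0 without the mean-variance trend (limma, 10 at an unadjusted p under 0.05), and ranged from 0 to 9 when single arrays were left out. Over all probe sets the count was 588 with the filter at the 60th percentile, 100 with no filter and 6 without the trend. It was 1312 with array weights, 236 with median scaling, 2183 with the replicate block and 726 within the second deposit run. When single arrays were left out it ranged from 7 to 1986. The related lists, glucocorticoid targets included, gave 11 genes of 144, and 23 with array weights, 2 with no filter, 0 without the trend and 37 with the replicate block, with a range from 0 to 31 when single arrays were left out. The cause of these shifts was not tested.

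Replicate numbers were not taken to pair the samples, since same-numbered deviations correlated at 0.06, 0.15 and 0.11 and not all were over 0.1. Wild-type replicates 3 and 4 correlated best with the KO array of their own number, and wild-type replicate 1 with KO replicate 2, which is a hint from the data and not from the design. With the replicate block, in which KO replicate 2 has no partner and adds nothing, 9 probe sets of the 7 genes passed.

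The sign turned in probe sets near 0 that passed in no setting. Nfat5 1448966_a_at was at -0.0071 with array weights and -0.353 within the second run, and from -0.305 (without wild-type replicate 1) to 0.221 when single arrays were left out, with -0.03 without KO replicate 1. Hspa4l 1418253_a_at was at 0.0081 with the run as a covariate, 0.0468 with the replicate block and 0.0164 within the second run, and from -0.194 to 0.108 (without wild-type replicate 4) when single arrays were left out. The same range was -0.201 to 0.102 for Hspa4l 1439093_at and -0.330 to 0.0778 for Hspa4l 1458385_at, positive in each without wild-type replicate 4.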
